A study of Mus musculus with 7 samples.

Results

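Histone methylation and acetylation enzymes are the protein-coding genes whose symbols begin with Kmt, Kdm, Setd, Hdac, Kat or Sirt and carry the family numbers 2 to 5 for Kmt, 1 to 8 for Kdm, 2 to 8 for Kat and 1 to 7 for Sirt. The rule found 61 genes among 21865 protein-coding genes and 53379 gene IDs in the count tables, and 59 of the 61 had enough reads to be tested. Their RNA was measured in the epithelium of the uterine lining, which magnetic beads against the surface antigen EPCAM had sorted from digested mouse uteri. Each of the 4 mutant libraries is 1 CD-1 mouse of 120 days with the genotype LtfCre 0/+; Brg1 fl/fl, in which Cre recombinase, expressed from the lactoferrin gene Ltf, deletes floxed Brg1. Smarca4 encodes Brg1, the motor subunit of the SWI/SNF chromatin remodeller. Each of the 3 control libraries is a pool of wild-type CD-1 mice with neither allele, re-used from earlier work, whose age the sources used here do not give. All mutant libraries belong to one set and all control libraries to another, so an effect of genotype cannot be told apart from one of library set or pooling.

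Enzymes of the KMT2, SETD1 and SETD2 type place methyl groups on histone H3 lysines 4 and 36 at active promoters and transcribed genes, SETDB1 methylates lysine 9 in silent chromatin, and KMT5 enzymes methylate histone H4 lysine 20. Demethylases remove these groups, the LSD enzymes with the cofactor FAD and the JmjC enzymes with iron and oxoglutarate. Acetyltransferases of the GNAT and MYST families acetylate histone tails, and zinc-dependent HDACs and NAD-dependent sirtuins take the acetyl groups off. SWI/SNF remodellers slide and evict nucleosomes, and several of their subunits carry bromodomains that bind acetylated lysines.

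Reads counted in genes numbered 12436971 to 13364080 in mutants and 21372036 to 25862245 in controls. Levels are given as counts per 1000000 gene reads, scaled between libraries with the TMM factors of edgeR (CPM). Smarca4 lay at 87.4, 56.6, 86.8 and 105.1 CPM in mutants (replicates 1 to 4, an order kept below), against 263, 245 and 279 CPM in controls (replicates 1 to 3), which gives −1.64 ± 0.23 SE as log2 fold change (edgeR adjusted p = 0.00967). Every mutant was below every control, although the count covers the whole gene and not the deleted part alone. Without control replicate 1, 2 or 3 the Smarca4 value kept its sign but had adjusted p = 0.0612, 0.0532 and 0.0575. All 5 epithelial markers were detected in every group, with a summed level of 5682 to 7645 CPM in mutants, against 11795 to 13278 CPM in controls, and Cdh1 and Krt8 fell. Neither passed with total count scaling (edgeR adjusted p = 0.0859 for Cdh1 and 0.0654 for Krt8), nor Krt8 with upper-quartile scaling (0.0530), and Krt8 is uncertain, with 26.9% of its words shared. The 6 fibroblast markers summed to 161 to 469 CPM in mutants, against 535 to 686 CPM in controls, and of these Dcn fell (−1.77, edgeR adjusted p = 0.00888). The 6 immune markers summed to 258 to 433 CPM in mutants, against 218 to 367 CPM in controls, with Cd74 alone at a mean of 199 CPM over all libraries. Averaged over these markers, the log2 difference from the control mean was −0.74, −0.82, −0.05 and −1.08 in mutants, while their median fitted value was 0.12. Smooth muscle markers (5 genes) summed to 7.51 to 74.0 CPM in mutants, against 66.1 to 105.9 CPM in controls, endothelial markers (5 genes) to 3.98 to 16.0 CPM in mutants, against 14.1 to 17.1 CPM in controls, and mesothelial markers (4 genes) to 8.97 to 37.3 CPM in mutants, against 40.1 to 55.2 CPM in controls. Of 4 erythroid markers, 3 had no read in any library, and the list reached 0.0780 CPM at most. The part of other cell types in the differences below was not tested, and in bulk samples fewer cells of a type and less RNA per cell cannot be told apart. Mutant replicate 1 stood apart in proliferation genes: the 22 cell cycle genes had a summed level of 446 CPM there, of 1876, 2812 and 1435 CPM in the 3 other mutants, and of 784 to 1218 CPM in controls.

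Few histone enzyme transcripts passed the test. Of the 59 tested genes, 3 passed the edgeR quasi-likelihood test at a Benjamini-Hochberg adjusted p under 0.05: the deacetylase Hdac1 was higher, and the deacetylase Hdac7 and the H3K4 demethylase Kdm5b were lower in mutants. This is 5.08% of the tested members, beside 11.5% of all 14610 tested genes, with 5.37% higher and 6.18% lower. The median log2 fold change was 0.01 over the members and 0.06 over all tested genes, and its size without sign had a median of 0.35 over the members and 0.55 over all genes. One member, Hdac7, differed by more than 2-fold in the fitted value, beside 24.8% of all genes.

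The 95% interval of the fold change lay wholly within 2-fold in either direction for 36 of the 59 members, or 61.0%, beside 26.6% of all tested genes. The median level of the tested members was 57.4 CPM and that of all tested genes 19.4 CPM, and the part of abundance in the narrower intervals was not tested. Mutant and control libraries did not overlap for 18 members (30.5%), 7 higher and 11 lower in mutants, beside 31.4% of all genes (15.4% higher and 16.1% lower), a share close to the background. At an unadjusted p under 0.05 stood 12 members (20.3%), beside 31% of all genes. DESeq2 called 7 members and 23.6% of all genes. A member that did not pass can still differ: the test recovered 1.03% of 2-fold and 29.7% of 4-fold changes simulated on these 14610 genes. Each simulation changed 200 genes drawn from all of them, while the test on the data called 11.5%. These shares need not hold for the members, whose median level was higher.

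**Figure D1:**
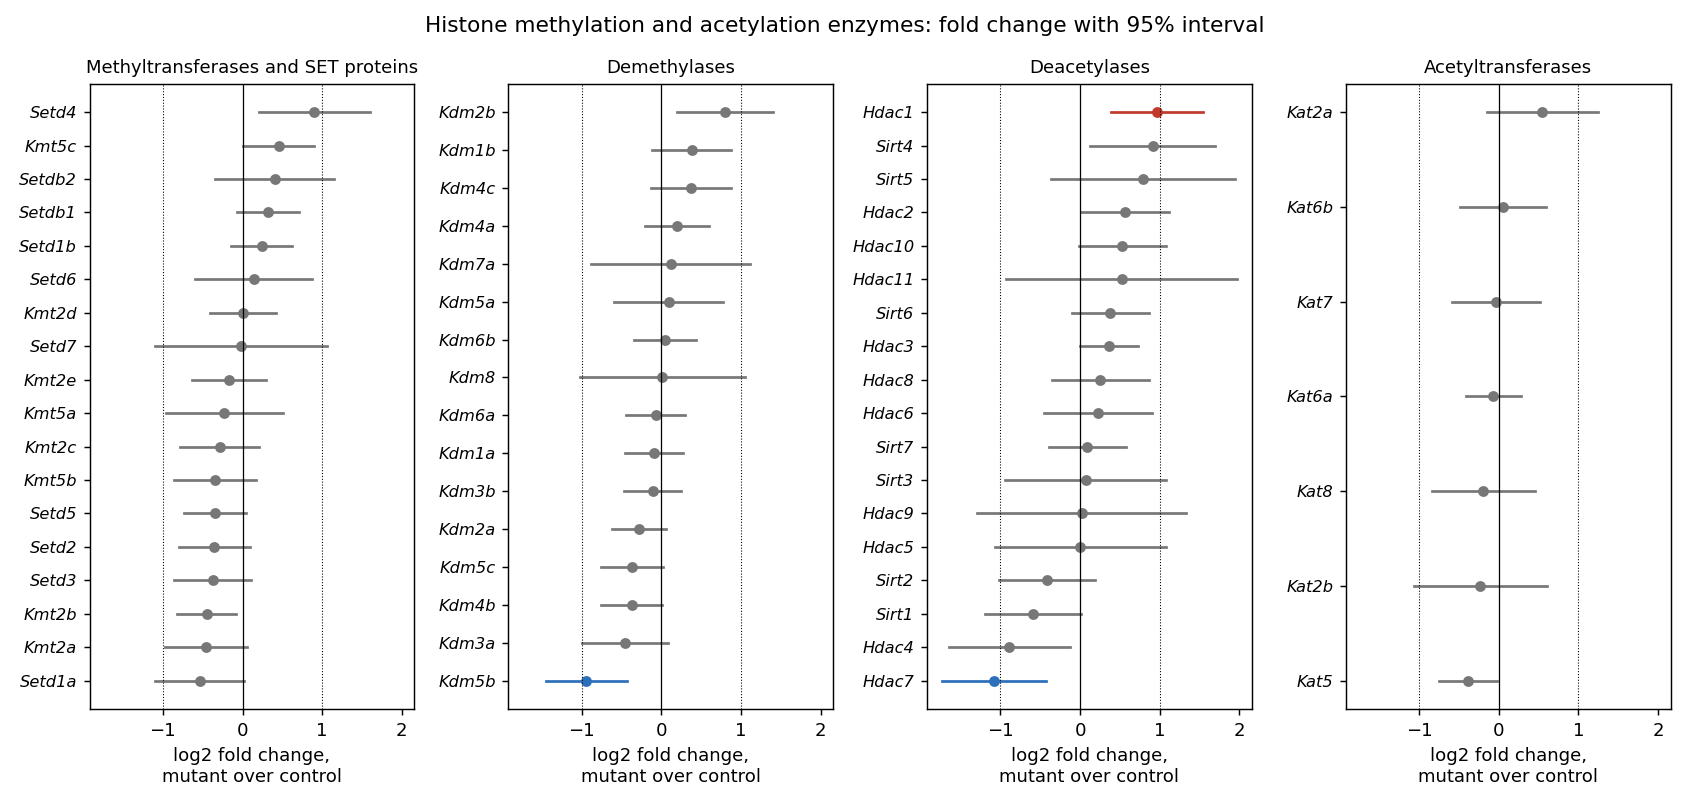
Log2 fold change, mutant over control, of the 59 tested histone enzyme genes with its 95% interval, in 4 panels by kind of enzyme; coloured points passed the edgeR test (red higher, blue lower in mutants), grey points did not, and dotted lines mark a 2-fold difference. Hdac1 is the gene called higher, and Hdac7 and Kdm5b are the genes called lower.

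Among the class I deacetylases, of which Hdac1 and Hdac2 serve as catalytic subunits of corepressor complexes such as SIN3, NuRD and CoREST, all 4 fitted values were positive and Hdac1 rose. Hdac1 lay at 49.8, 68.2, 74.1 and 98.2 CPM in mutants, against 40.5, 32.8 and 38.1 CPM in controls. No mutant overlapped the controls, and mutant replicate 4 was the highest. The difference was 1.95-fold (log2 fold change 0.97 ± 0.25 SE, 95% interval 0.39 to 1.55, edgeR adjusted p = 0.0481). Hdac1 (ENSMUSG00000028800.15) is annotated on the minus strand of chromosome 4 (GRCm38), bases 129516104 to 129542713. Its count is uncertain, because 35.3% of its 50-base words also occur in other genes, most of them in the processed pseudogene Gm10093. Gm10093 held 30 to 46 reads in mutants and 80 to 131 reads in controls, and with both counts summed the value was 0.84 (edgeR adjusted p = 0.0643), so the call did not hold. The call also ended with adjusted p = 0.0758, 0.0993 and 0.0790 without mutant replicates 2, 3 and 4 and at 0.150, 0.168 and 0.154 without control replicates 1, 2 and 3. Without mutant replicate 1 it stood at adjusted p = 0.00874.

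Hdac2, the close paralogue of Hdac1 in the same complexes, lay at 115, 81.3, 116 and 161 CPM in mutants and at 77.9, 79.8 and 81.9 CPM in controls (log2 fold change 0.57 ± 0.24 SE, edgeR adjusted p = 0.154). Mutant replicate 2 lay within the control range and the other mutants above it. Hdac3, the catalytic subunit of nuclear receptor corepressor complexes, lay at 106, 90.6, 96.6 and 114 CPM in mutants and at 74.9, 83.7 and 78.1 CPM in controls. Its groups did not overlap, but the value of 0.37 did not pass (edgeR adjusted p = 0.156). With total count scaling Hdac3 passed as higher (0.73, edgeR adjusted p = 0.0372), in a fit that called 18.7% of all genes. Hdac8 was low at 8.88 to 12.6 CPM in mutants, against 7.53 to 11.5 CPM in controls (0.26, 95% interval −0.35 to 0.86). Per kilobase of exon, the summed level of the 4 class I genes was 68.8, 62.1, 73.4 and 94.9 in mutants and 50.01, 49.6 and 50.2 in controls, in CPM per kilobase. Every mutant sum was above every control sum, and the controls were nearly equal. Hdac1 made up 28.0 ± 4.82% of that sum in mutants and 21.6 ± 2.17% in controls (SD, n = 4 and 3), and mutant replicate 1 lay within the control range.

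Of the 4 class IIa deacetylases, which shuttle between nucleus and cytoplasm and bind MEF2 factors, Hdac7 fell, and 2 of the others had fitted values near 0. Hdac7 lay at 55.7, 35.99, 72.6 and 81.3 CPM in mutants, against 145, 125 and 120.3 CPM in controls. All mutants lay below all controls, mutant replicate 2 lowest, and the fitted value was 2.11-fold lower (log2 fold change −1.08 ± 0.28 SE, 95% interval −1.73 to −0.43, edgeR adjusted p = 0.0486). Hdac7 (ENSMUSG00000022475.19) is annotated on the minus strand of chromosome 15, bases 97792664 to 97844502. Leaving out 1 library ended the call, at adjusted p = 0.0561, 0.0828 and 0.0543 without mutant replicates 2, 3 and 4 and at 0.188, 0.153 and 0.146 without control replicates 1, 2 and 3, while it stood at 0.0479 without mutant replicate 1. It did not pass with upper-quartile scaling (−0.94, edgeR adjusted p = 0.0697) or total count scaling (−0.70, edgeR adjusted p = 0.155).

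Hdac4 was also below the controls in every mutant, without passing. It lay at 71.4, 35.5, 33.8 and 65.0 CPM in mutants and at 95.04, 117 and 74.2 CPM in controls (−0.89 ± 0.33 SE, edgeR adjusted p = 0.115), with mutant replicate 1 just below control replicate 3. Hdac5 was scattered: 102.5, 27.3, 32.9 and 74.3 CPM in mutants lay on both sides of the 50.5 to 65.1 CPM of the controls, and its value of 0.01 had a 95% interval from −1.07 to 1.08. Hdac9 was low, at 0.936 to 2.45 CPM in mutants, against 0.792 to 2.59 CPM in controls. The summed class IIa level was 24.5, 10.8, 16.8 and 24.7 CPM per kilobase in mutants and 33.3, 33.3 and 29.7 CPM per kilobase in controls, without overlap. The class I sum was thus 1.498 times and the class IIa sum 0.598 times the control mean, and with total count scaling these ratios were 1.93 and 0.769, with overlap in class IIa. Each sum includes its called gene. Hdac7 made up 49.0 ± 12.4% of the class IIa sum in mutants and 60.0 ± 4.53% in controls (SD, n = 4 and 3), with mutant replicate 3 inside the control range.

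**Figure D2:**
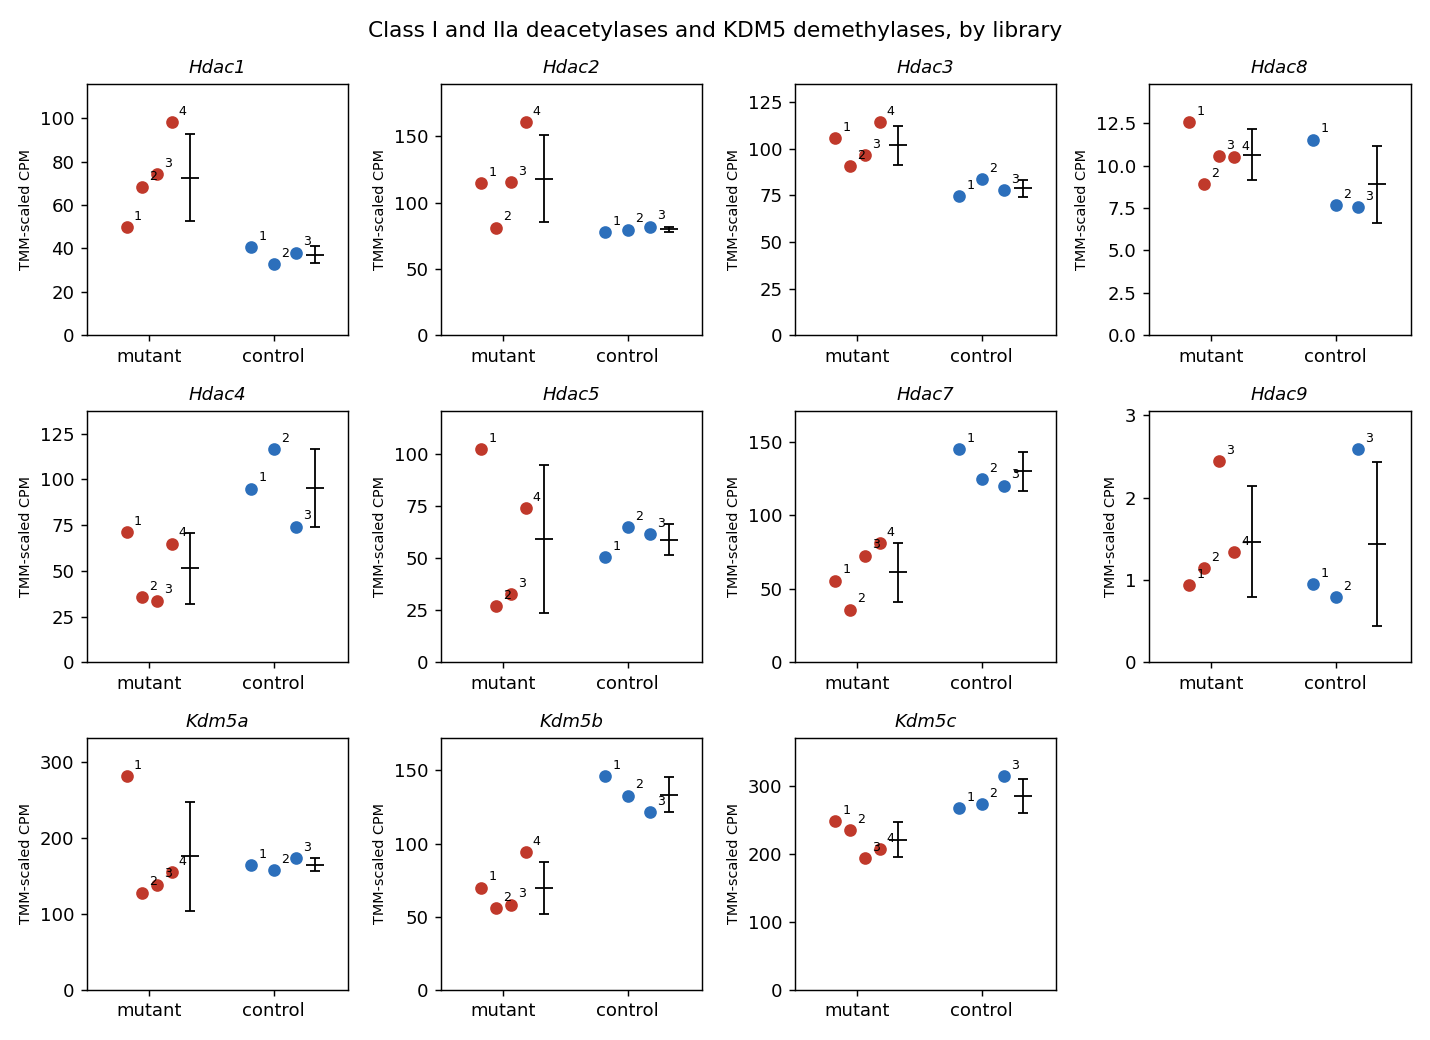
TMM-scaled CPM of the class I (Hdac1, Hdac2, Hdac3, Hdac8) and class IIa (Hdac4, Hdac5, Hdac7, Hdac9) deacetylases and of Kdm5a, Kdm5b and Kdm5c in each library, mutants in red and controls in blue, numbered by replicate, with the mean and SD (n = 4 mutants and 3 controls) as black bars. Hdac1 and Hdac3 lie above the controls in every mutant, and Hdac4, Hdac7, Kdm5b and Kdm5c below them.

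The remaining deacetylases did not pass. Of the class IIb and IV genes, Hdac6, a cytoplasmic tubulin deacetylase, had a value of 0.23, Hdac10, a polyamine deacetylase, 0.53 with every mutant (8.18 to 11.6 CPM) above every control (6.21 to 7.13 CPM), and Hdac11 0.52 with a 95% interval from −0.93 to 1.97. Of the 7 sirtuins, 5 had a positive value. The mitochondrial Sirt4 lay at 6.79, 6.66, 4.12 and 5.35 CPM in mutants and 3.84, 3.12 and 2.18 CPM in controls (0.91 ± 0.34 SE, edgeR adjusted p = 0.119). All mutants were above all controls, but the level was low. Sirt1, a nuclear deacetylase of histones and p53, lay at 39.6, 24.7, 21.7 and 21.7 CPM in mutants, against 40.5, 45.6 and 35.4 CPM in controls (−0.59 ± 0.26 SE, edgeR adjusted p = 0.171). Mutant replicate 1 was within the control range and the other mutants below it. Sirt2, the most abundant sirtuin, had a value of −0.41 (edgeR adjusted p = 0.322), the nuclear Sirt6 0.38 and the nucleolar Sirt7 0.09, and the mitochondrial Sirt3 (0.07) and Sirt5 (0.79, edgeR adjusted p = 0.319) were low, at most 9.29 CPM in any library. Sirt5 is uncertain, with 13.9% of its words shared with other genes.

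The demethylase that fell was Kdm5b, which removes methyl groups from H3K4 at promoters. Kdm5b lay at 69.8, 55.8, 58.2 and 94.2 CPM in mutants, against 146, 133 and 122 CPM in controls. Every mutant was below every control, mutant replicate 4 nearest to them. The level was 0.521 of the control level (log2 fold change −0.94 ± 0.22 SE, 95% interval −1.45 to −0.43, edgeR adjusted p = 0.0374). Kdm5b (ENSMUSG00000042207.17) is annotated on the plus strand of chromosome 1, bases 134560171 to 134635285. The call held without mutant replicate 1 or 4 (adjusted p = 0.0338 and 0.0286) and ended without mutant replicate 2 or 3 (0.0731 and 0.0907) and without control replicate 1, 2 or 3 (0.172, 0.147 and 0.126). It also did not pass with upper-quartile scaling (−0.80, edgeR adjusted p = 0.0623) or total count scaling (−0.57, edgeR adjusted p = 0.150). Without the filter on low counts Kdm5b, Hdac7 and Hdac1 had edgeR adjusted p = 0.0537, 0.0597 and 0.0890, and with counts of both strands Hdac7 had 0.0553.

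Its family members differed less. Kdm5c, an X-linked H3K4 demethylase, lay at 249, 235, 193 and 207 CPM in mutants and 268, 274 and 314 CPM in controls, without overlap (−0.37 ± 0.17 SE, edgeR adjusted p = 0.180). Kdm5a, at 281, 128, 139 and 155 CPM in mutants, lay on either side of the 157 to 173 CPM of the controls (0.09, edgeR adjusted p = 0.862). Kdm5b made up 8.92 ± 2.45% of the summed KDM5 level per kilobase in mutants and 13.5 ± 1.86% in controls (SD, n = 4 and 3), with mutant replicate 4 inside the control range. The KDM5 sum itself was 0.797 times the control mean, and 1.01 times with total count scaling, with overlap between the groups in both. Kdm5d, the Y-linked member, had 0 reads in all 7 libraries, a count that allows at most 0.116 to 0.241 counts per 1000000 gene reads in a library. It and the KDM4 gene Kdm4d, with 0 to 7 reads per library, are the 2 members under the filter.

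The promoters of the pair of genes that fell are shown as the sequence context of their start sites. Each run holds the 250 bases before the RefSeq start nearest to the annotated gene start (GRCm38.p6, chr1:134559928-134560177 on the plus strand for Kdm5b and chr15:97844503-97844752 on the minus strand for Hdac7, which has 4 listed starts), 5′ to 3′, with a GC box (GGGCGG, searched on both strands) in capitals.
Kdm5b: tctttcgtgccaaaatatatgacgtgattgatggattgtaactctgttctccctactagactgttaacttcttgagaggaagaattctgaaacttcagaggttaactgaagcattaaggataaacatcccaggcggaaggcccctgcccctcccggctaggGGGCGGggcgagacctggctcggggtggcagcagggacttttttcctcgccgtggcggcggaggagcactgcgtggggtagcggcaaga
Hdac7: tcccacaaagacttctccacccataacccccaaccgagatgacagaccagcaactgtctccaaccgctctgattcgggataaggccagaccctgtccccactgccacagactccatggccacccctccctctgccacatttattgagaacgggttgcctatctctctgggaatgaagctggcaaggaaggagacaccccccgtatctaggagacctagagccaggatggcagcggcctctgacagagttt
The Kdm5b window held 13 CpG dinucleotides and 1 GC box, and the Hdac7 window 6 CpG dinucleotides and no GC box. Over the 69 windows of 49 members with a listed promoter the median was 17 CpG dinucleotides, beside 6 over all 32851 windows. These 32851 windows were not limited to tested genes, so they are not a matched background for the members. A GC box was present in 58.0% of the members' windows and 32.7% of all windows, and a CCAAT box (CCAAT, both strands) in 43.5% and 33.8%. The AP-1 motif TGANTCA was in 8.70% of the members' windows and 6.75% of all, and the E2F motifs TTTCCCGC and TTTGGCGC together in 2.90% and 1.30%. Neither printed window held a CCAAT, AP-1 or E2F match. Hdac1 is not among the listed promoters.

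None of the other demethylases passed. Kdm2b, an H3K36 demethylase that recruits a variant Polycomb complex to CpG islands, lay at 14.2, 20.98, 25.9 and 24.1 CPM in mutants and 13.4, 12.4 and 10.8 CPM in controls (0.80 ± 0.26 SE, edgeR adjusted p = 0.0850). All mutants lay above all controls, mutant replicate 1 by the least. Its paralogue Kdm2a lay at 117 to 137 CPM in mutants, below the 143 to 158 CPM of the controls (−0.28, edgeR adjusted p = 0.228). Among the H3K9 demethylases Kdm3a had a value of −0.45, Kdm3b −0.11, Kdm4a 0.20, Kdm4b −0.37 and Kdm4c 0.37, each with an interval within 2-fold. Kdm4b lay below every control in every mutant (21.9 to 28.2 CPM in mutants, against 30.6 to 33.8 CPM in controls).

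The H3K27 demethylases did not pass and had narrow intervals. Kdm6b, an inducible enzyme and the most abundant member per length, lay at 359, 361, 304 and 408 CPM in mutants and 365, 334 and 342 CPM in controls. The control range lay inside the mutant range, and the value of 0.05 had a 95% interval from −0.35 to 0.44. Kdm6a, an X-linked subunit of the KMT2C and KMT2D complexes, had a value of −0.07 (95% interval −0.44 to 0.30). The LSD enzyme Kdm1a had a value of −0.09 (95% interval −0.46 to 0.27) and Kdm1b 0.38. Kdm8, a JmjC hydroxylase, was at 1.09 to 3.43 CPM in mutants, against 2.32 to 2.50 CPM in controls.

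No methyltransferase passed, and 14 of 18 had an interval within 2-fold. Kmt2d, an H3K4 monomethyltransferase of enhancers, lay at 295, 217, 213 and 233 CPM in mutants and 233, 253 and 229 CPM in controls, a value of 0.01 (95% interval −0.41 to 0.42). Kmt2b, an H3K4 methyltransferase of promoters, lay at 57.4, 73.3, 75.6 and 75.4 CPM in mutants and 98.0, 94.2 and 96.8 CPM in controls. All mutants were below all controls, which differed little among themselves, but the value of −0.45 ± 0.16 SE did not pass (edgeR adjusted p = 0.110). Kmt2a (−0.46) and Setd1a (−0.54) also lay below every control in every mutant without passing, while Kmt2c had a value of −0.29, Kmt2e −0.17 and Setd1b 0.24. The H3K4 monomethyltransferase Setd7 had a value of −0.02 with an interval from −1.10 to 1.06. Of these 8 genes, classed here as H3K4 methyltransferases by family, 6 had a negative value, and 3 with total count scaling, so their common direction depends on the scaling. Setd1a is uncertain, with 51.2% of its words shared with the gene model Gm49388, which had 0 reads in all libraries.

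Setd2, which trimethylates H3K36, lay at 80.8, 88.1, 94.8 and 109 CPM in mutants and 139, 122 and 96.1 CPM in controls (−0.35 ± 0.19 SE, edgeR adjusted p = 0.249), and mutant replicate 4 overlapped the controls. The H3K9 methyltransferase Setdb1 lay at 52.1, 43.3, 57.7 and 56.8 CPM in mutants and 44.1, 40.2 and 41.9 CPM in controls, a value of 0.32 (edgeR adjusted p = 0.241). One mutant, replicate 2, overlapped the controls there. Setdb2 had a value of 0.40 at 4.37 to 8.39 CPM in mutants, against 3.77 to 5.79 CPM in controls. Among the H4K20 enzymes, Kmt5c lay at 25.1, 27.9, 32.8 and 35.1 CPM in mutants and 23.3, 23.1 and 19.9 CPM in controls, without overlap (0.45 ± 0.19 SE, edgeR adjusted p = 0.156). Among the other SET domain proteins, Setd4 lay at 3.67, 5.51, 4.61 and 4.62 CPM in mutants and 2.11, 2.80 and 2.50 CPM in controls (0.90 ± 0.30 SE, edgeR adjusted p = 0.0932). Its groups did not overlap, but its level was low. Setd3, an actin histidine methyltransferase, had a value of −0.37 and is uncertain (16.4% of its words shared) and Setd6 0.14. Setd5 lay at 137 to 175 CPM in mutants, below the 190.1 to 232 CPM of the controls (−0.35, edgeR adjusted p = 0.205).

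None of the 7 acetyltransferase genes passed. With counts of both strands, which also hold reads of the opposite strand, Kat8 passed as lower (−1.36, edgeR adjusted p = 0.0150). That fit called 11% of all genes. With the reverse-stranded counts Kat8 had −0.19 (edgeR adjusted p = 0.673), and the part of opposite-strand reads in the call was not tested. The MYST enzyme Kat5 (Tip60), the catalytic subunit of the NuA4-type complex, lay at 33.7, 31.6, 31.9 and 35.8 CPM in mutants and 39.9, 43.1 and 47.8 CPM in controls. All mutants were below all controls with little scatter, and the value was −0.39 ± 0.16 SE (edgeR adjusted p = 0.139). Kat6a, Kat6b, Kat7 and Kat8, which acetylate H3 or H4 in the BRPF, ING and MSL or NSL complexes, had values of −0.07, 0.06, −0.03 and −0.19, each with an interval within 2-fold. The GNAT pair Kat2a and Kat2b, alternative catalytic subunits of SAGA-type complexes, had values of 0.55 and −0.23 with intervals from −0.15 to 1.25 and from −1.07 to 0.60.

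The spread was larger among mutants, which are single mice, than among controls, which are pools with more gene reads. The part of genotype in this spread cannot be told apart from that of pooling or depth. The median SD of log2 CPM over the members was 0.31 among mutants and 0.14 among controls, beside 0.52 and 0.24 over all tested genes. Mutant replicate 1 was the highest mutant for 25 of the 59 members (42.4%) and the lowest for 19 (32.2%), beside 34.6% and 35.3% of all tested genes. For 5 members mutant replicate 1 lay above every control while the other 3 mutants lay below every control, and for 1 member the reverse held (8.47% and 1.69% of members, beside 5.11% and 4.70% of all tested genes). Over both arrangements this is 10.2% of members and 9.82% of all tested genes, so the share is close to the background. Kmt5a, the H4K20 monomethyltransferase that is regulated through the cell cycle, had 351, 186, 179 and 138 CPM in mutants, against 259, 247 and 244 CPM in controls. Kmt5b, which adds further methyl groups to H4K20, had 74.8, 51.2, 42.1 and 52.8 CPM in mutants, against 63.3 to 73.8 CPM in controls. Kdm5a, Kdm7a and Kat2b had the same arrangement. Kdm7a, an H3K9 and H3K27 demethylase, had 170.3, 73.6, 46.9 and 60.9 CPM in mutants, against 73.9 to 88.3 CPM in controls. Kat2b had 128, 54.6, 49.3 and 55.9 CPM in mutants, against 73.5 to 92.8 CPM in controls. Its paralogue Kat2a ran the other way, with 29.8, 59.5, 73.5 and 47.2 CPM in mutants, against 33.7 to 38.5 CPM in controls.

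**Figure D3:**
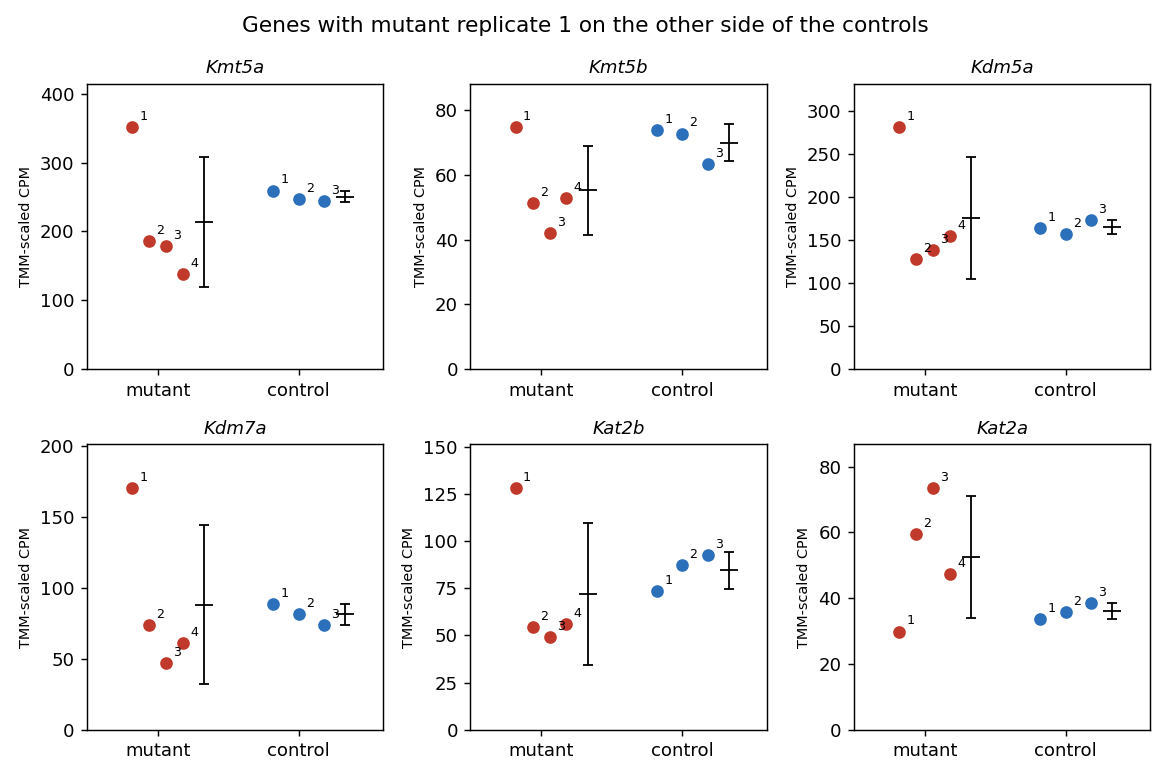
TMM-scaled CPM in each library, mutants in red and controls in blue, numbered by replicate, with mean and SD (n = 4 mutants and 3 controls), of the 6 genes for which mutant replicate 1 lies on one side of every control and mutant replicates 2 to 4 on the other. Kat2a is the gene with mutant replicate 1 below the controls.

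Without mutant replicate 1, 12 members passed, 5 higher and 7 lower (20.3%, beside 29.5% of all genes in that fit, 15.5% higher and 14% lower). To the 3 named above came Kdm2b (0.998), Setd4 (1.03), Kat2a (0.78) and the H4K20 methyltransferase Kmt5c (0.58) as higher, and Sirt1 (−0.79), Kat2b (−0.62), Kmt5a (−0.54), Hdac4 (−1.04) and Setd3 (−0.50) as lower, at edgeR adjusted p from 0.0114 to 0.0481. In that fit the GNAT pair was called in opposite directions. The cell cycle genes and mutant replicate 1 moved together, as given above, and their part in these calls was not tested. Without mutant replicate 4, Kdm5b alone passed (6.34% of all genes), and without mutant replicate 2 or 3 no member did (6.75% and 4.21% of all genes). Without control replicate 1, 2 or 3 no member passed either, beside 0.878%, 1.11% and 0.902% of all genes. In these 5 fits with 0 calls, 5 to 10 members had an unadjusted p under 0.05, and the share of all genes under it was not counted there. In the edgeR fit with all libraries, 12 members (20.3%) were under it, beside 31% of all genes.

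Levels between genes can be compared per kilobase of exon. Kdm6b was the most abundant member in both groups, at 51.5 ± 6.16 CPM per kilobase in mutants and 49.9 ± 2.31 in controls, followed by Kmt5a (40.2 ± 17.8 in mutants and 47.2 ± 1.498 in controls) and Kdm5c (31.1 ± 3.57 in mutants and 40.1 ± 3.57 in controls; SD, n = 4 and 3). The Kdm6b means differed by less than the SD of either group. The Kmt5a means differed by less than the SD of the mutants but by more than that of the controls. In order of level, Hdac1 stood at place 6 in mutants and 19 in controls, Hdac7 at 20 in mutants and 6 in controls, and Kdm5b at 40 in mutants and 30 in controls. Hdac9, Kdm4d and Kdm5d were the lowest in both.

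**Figure D4:**
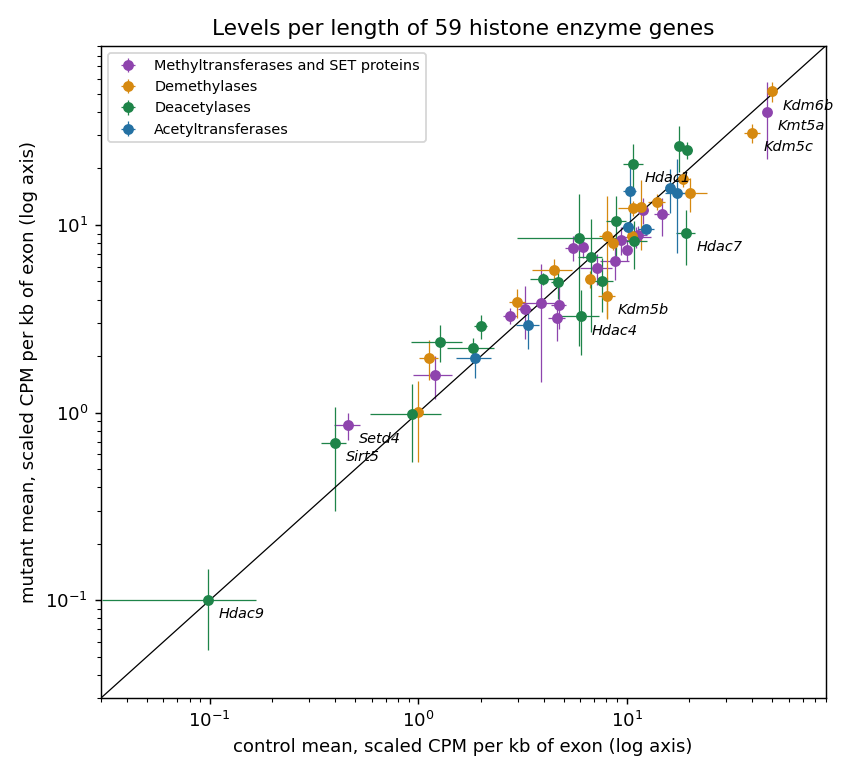
Mean level of the 59 tested genes in mutants (vertical) against controls (horizontal), in TMM-scaled CPM per kilobase of exon on log axes, with SD bars (n = 4 mutants and 3 controls) and the line of equal level. Most genes lie along the line from Hdac9 near 0.1 to Kdm6b near 50, with Hdac1 above it and Hdac7, Hdac4 and Kdm5b below it.

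Across the 59 members, which share libraries, the fold change ran against exon length (Spearman rho −0.43) and against mean CPM (rho −0.47). Over 14601 tested genes with a length these were −0.01 and −0.17. Among the genes named above, Kdm5b has 16555 exon bases and Hdac4 15813, and Hdac1 has 3445 and Sirt4 2398. The part of length or depth in the fold changes was not tested. The authors' deposited table, made with DESeq2, gives log2 fold changes of 0.98 for Hdac1 (adjusted p = 0.00315), −0.93 for Kdm5b (adjusted p = 0.0254) and −1.07 for Hdac7 (adjusted p = 0.0775). The authors' deposited table also gives 0.91 for Setd4 (adjusted p = 0.0280) and −0.88 for Hdac4 (adjusted p = 0.0492).

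The enzymes act in complexes, and 134 genes of 9 lists of partners were read from the same fit. Of the 129 tested, 5 rose and 9 fell (10.9%, beside 11.5% of all genes). The list with most calls was that of the acetyltransferase complex subunits, of which 5 of 28 fell and none rose (17.9% lower, beside 6.18% of all genes). With upper-quartile scaling 1 of these fell and none rose, and with total count scaling 1 fell and 1 rose, Trrap being the one that fell in both. Trrap, the large scaffold shared by the Kat5 and Kat2a or Kat2b complexes, lay at 296, 183, 178 and 174 CPM in mutants and 762, 619 and 503 CPM in controls (−1.59 ± 0.26 SE, edgeR adjusted p = 0.0148). All mutants were far below all controls. Brpf1 (−0.67) and Brd1 (−0.71), scaffolds of Kat6a, Kat6b and Kat7, and Kansl1 (−0.59) and Kansl3 (−0.65), NSL subunits that bind Kat8, fell as well. The catalytic subunits of these complexes are the 7 acetyltransferase members, none of which passed with reverse-stranded counts.

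Crebbp, an H3K27 acetyltransferase, fell (120, 104, 96.8 and 112 CPM in mutants, 210, 178 and 178 CPM in controls; −0.80 ± 0.16 SE, edgeR adjusted p = 0.0243), while its paralogue Ep300 had a value of 0.04 (edgeR adjusted p = 0.889). With total count scaling Crebbp had −0.45 (edgeR adjusted p = 0.0969). The difference between these paralogues was not tested. Brd2, a BET reader of acetylated histones, fell to 207, 246, 251 and 262 CPM in mutants, against 548, 438 and 466 CPM in controls (−1.002 ± 0.17 SE, edgeR adjusted p = 0.0172). Its groups did not overlap, and with total count scaling it had edgeR adjusted p = 0.0584. Among other writers, the H3K36 methyltransferase Nsd1 rose to 139, 148, 138 and 131 CPM in mutants, against 70.3, 77.5 and 59.8 CPM in controls (1.004 ± 0.16 SE, edgeR adjusted p = 0.0142), as did Kat14 (0.83), a subunit of the ATAC complex. Kat14 is uncertain, with 12.96% of its words shared. The Polycomb cofactor Jarid2 rose by 0.87 on the log2 scale. Of 11 COMPASS subunits Ncoa6 fell (−0.65), but not with upper-quartile (−0.52, edgeR adjusted p = 0.0612) or total count scaling (−0.31, edgeR adjusted p = 0.207). Of 29 deacetylase corepressor subunits the histone chaperone Rbbp4 passed and rose (0.78). None of the 8 tested arginine methyltransferases passed, with Prmt1 at 0.65. Of the cofactor genes, Mat2b, a regulatory subunit of methionine adenosyltransferase, rose (0.92) and Nmnat2, an NAD synthesis enzyme, fell (−2.95, 1.03 to 6.36 CPM in mutants, against 15.8 to 29.7 CPM in controls). Without mutant replicate 1 the partner genes called numbered 20 higher and 15 lower, in a fit that called 29.5% of all genes, and without control replicate 1, 2 or 3 they numbered 0. Without mutant replicates 2, 3 and 4 there were 2, 1 and 3 higher and 3, 2 and 2 lower.

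**Figure D5:**
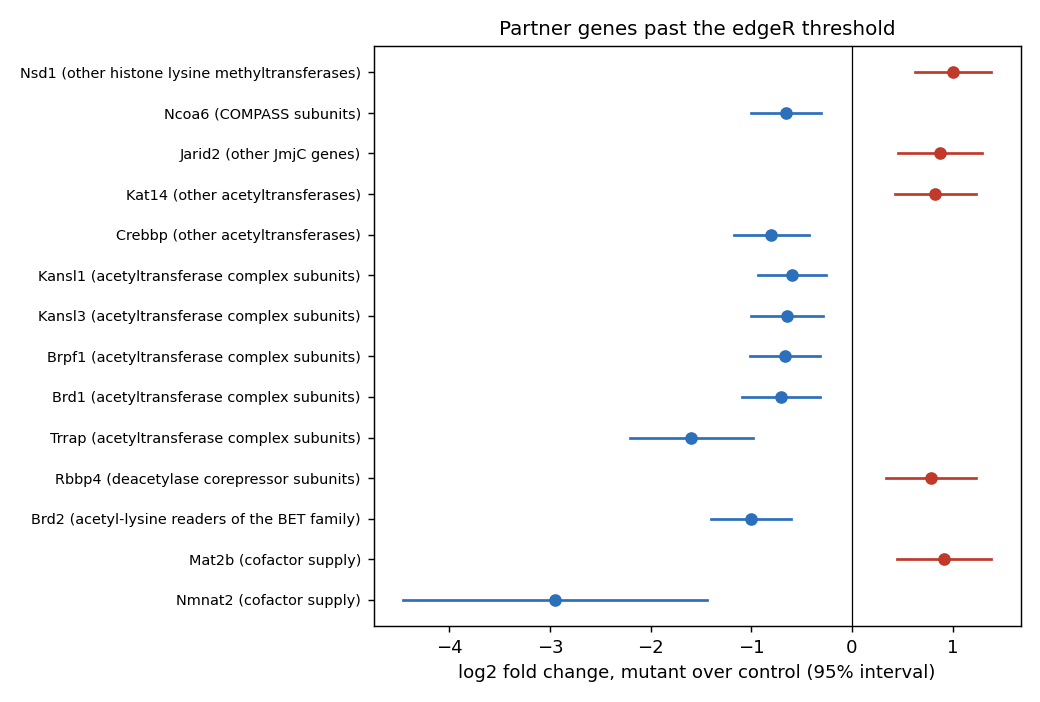
Log2 fold change, mutant over control, with its 95% interval, of the 14 partner genes past the edgeR threshold, ordered by list; red is higher and blue lower in mutants. The called acetyltransferase complex subunits and Brd2 lie on the lower side, with Trrap at −1.59, and Nsd1 is the gene highest in value at 1.004.

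The genes of dissociation and early response also moved in part: of 18, Fosb rose and Fosl1, Junb and Ier3 fell (22.2%, with 16.7% lower, beside 11.5% and 6.18% of all genes). Their summed level was 8856 to 14924 CPM in mutants, against 13550 to 14214 CPM in controls, and its part in the differences above was not tested.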

How the data were processed

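Per the labels, the 7 libraries are strand-specific mRNA-seq of EPCAM-sorted epithelium made with a KAPA kit. The authors deposited STAR gene counts, whole-number counts that are not normalized. The submitters' processing notes name cutadapt, Trim Galore, FastQC, STAR and DESeq2 and the build mm10, without versions. They also deposited a table of log2 fold changes, standard errors (read here as a score) and adjusted p-values from DESeq2.

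The reverse-stranded counts were used, which held 94.8% to 95.6% of both stranded columns. Reads without a gene made up 10.5% to 14.7% of a library, unmapped reads 3.90% to 6.70%, multimapping reads 8.45% to 11.2% and ambiguous reads 0.827% to 1.29%, and all stayed out of library sizes. Of 53379 IDs, 53274 matched GENCODE M21 (GRCm38), which gives symbols, types, coordinates and the exon length.

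The filter was filterByExpr and the test that of edgeR 4.0.16 in R 4.3.3 (quasi-likelihood, TMM, genotype only, two-sided, Benjamini-Hochberg over 14610 genes). Intervals are 95% from the same fit. Standard errors are the log2 fold change divided by the root of F. Alternatives were DESeq2 1.42.0, limma-voom (limma 3.58.1), other scalings and filters, unstranded counts, a replicate term and leaving out each library. Summing a member's counts with those of the gene sharing most of its 50-base words was added after seeing the data. The test was checked on simulated counts. Since mutants are single mice and controls are pools, p-values rest on the spread between such libraries. Counting limits use 3 reads and cover counting error only.

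The members, lists and tests were chosen with earlier results of these data known. Named were members past the threshold and those of their classes, the most abundant member of every other class, the 3 largest differences not past it, members under the filter, and for each partner list up to 3 genes past it at 1 CPM or more, else the most abundant. The remaining members were named so that each is accounted for. Kansl1 and Kansl3 fall outside that rule and were named after their values were seen, as were Ep300 and Junb. Sequences are from RefSeq (GRCm38.p6). Some genes of the partner lists are not reported here and enter no count of those lists.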

Additional observations from a re-analysis of the deposited data

Results flagged for a closer look

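Over the 59 tested members, the 4 mutant libraries were searched for a library far from the others, which chance alone does in about 1 in 20 groups. This found 3 of 59 members, in each case in mutant replicate 1. The members share the same 4 libraries, so the rate of 1 in 20, which holds for separate groups, cannot be applied to this number. The share of all tested genes with such a library was not counted. Kat2b lay at 128 CPM there and at 49.3 to 55.9 CPM in the other mutants. Kmt2b lay at 57.4 CPM there and at 73.3 to 75.6 CPM in the other mutants. Sirt1 lay at 39.6 CPM there and at 21.7 to 24.7 CPM in the other mutants. The 3 genes have no class in common.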

How the results depend on the processing

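Smarca4 did not pass with the replicate block (−1.79, adjusted p = 0.127) and, without 1 library, ranged from −1.76 to −1.48. Members called higher numbered 4 with DESeq2, 5 with total count scaling and 0 without a filter, with the replicate block or with counts summed with the sharing gene. Members called lower numbered 0 with upper-quartile scaling, with total count scaling, without a filter and with the replicate block. Without 1 library the counts ran from 0 to 5 higher and from 0 to 7 lower. Those DESeq2 added were Kdm2b, Kmt2b, Setd4 and Sirt4, and those total count scaling added were Hdac3, Kdm2b, Setd4 and Sirt4. All tested genes called numbered 3423 with DESeq2, 2734 with total count scaling, 1057 without a filter and 2 with the replicate block, and 133 to 4403 without 1 library. Partner genes called higher numbered 13 with DESeq2, 8 with upper-quartile scaling, 18 with total counts, 1 without a filter and 0 with the block, and 0 to 20 without 1 library. Partner genes called lower numbered 14 with DESeq2, 4 with upper-quartile scaling, 2 with total counts, 3 without a filter and 0 with the block, and 0 to 15 without 1 library. The median of the members was 0.36 with total count scaling, which moved the median of all genes to 0.41, against 0.20 with upper-quartile scaling. The share of all calls that were higher moved with these scalings, from 784 of 1687 to 1178 of 1882 and 2202 of 2734. The cause of these differences was not tested. The replicate numbers do not pair the libraries: deviations of same-numbered libraries correlated at −0.02, −0.36 and 0.16 for replicates 1, 2 and 3. Kdm4d and Kdm5d had too few reads to be tested.

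Of the 59 tested members, 14 turned sign with total count scaling, 6 with upper-quartile scaling, 4 with limma-voom, 4 without a filter, 6 with the replicate block, 3 with unstranded counts and 16 in at least one fit without 1 library. Values are given for those of them that the naming rule covers, which passed neither before nor after. With total count scaling they were Kat2b (0.094), Setd2 (0.0077), Kmt5a (0.093), Kdm2a (0.070), Kdm1a (0.27), Kat6a (0.28) and Setd5 (0.0099). With limma-voom they were Kmt2d (−0.0043), Kdm8 (−0.087) and Hdac5 (−0.20), and with no filter on low counts Kmt2d (−0.028), Kdm8 (−0.017), Hdac5 (−0.037) and Hdac9 (−0.020). With the replicate block they were Kdm6b (−0.027), Hdac6 (−0.034), Kdm8 (−0.29) and Hdac5 (−0.40). With upper-quartile scaling they were Kdm1a (0.047) and Kat6a (0.070). Over the fits without 1 library the range of these crossed 0 for Kmt2d (−0.066 to 0.094), Kdm6b (−0.015 to 0.13), Kdm1a (−0.14 to 0.0068), Kat6a (−0.10 to 0.00099), Kdm8 (−0.19 to 0.30), Kdm5a (−0.19 to 0.22), Hdac5 (−0.34 to 0.25) and Hdac9 (−0.33 to 0.77).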
